A study of Mus musculus with 20 samples.

Results

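Hox genes encode homeodomain transcription factors that pattern the body axis of the embryo. In the mouse they lie in 4 clusters, named Hoxa to Hoxd, and each gene carries a paralog number that gives its place along the cluster, so that genes with the same number in different clusters descend from 1 ancestral gene. Low numbers mark the end of a cluster that is active at anterior levels, and high numbers the end active at posterior levels. In kidney development the Hox11 paralogs act with Eya1 in the metanephric mesenchyme, and adult cells often keep part of the Hox pattern of the place they came from. Hox proteins bind DNA together with TALE cofactors of the Pbx and Meis families, and their clusters are held on or off by trithorax and Polycomb proteins.

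The members described here were all genes of the deposited count table whose symbol is Hox, a cluster letter and a number. This rule found 37 of 34255 genes, 11 in the Hoxa cluster, 9 in Hoxb, 9 in Hoxc and 8 in Hoxd. The GENCODE M21 annotation of mouse build GRCm38 holds 39 such genes; Hoxb13 and Hoxd1 were not analysed here. The Hoxa cluster spans chr6:52155590-52260880 on the minus strand, Hoxb chr11:96271457-96368256, Hoxc chr15:102921103-103036852 and Hoxd chr2:74668310-74748442, the last 3 on the plus strand.

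The mRNA was measured by 3′ sequencing in kidneys of healthy, young adult male WT mice of the C57BL6/OlaHsd strain. The header of the count table marks all 20 libraries as control at 4 h, and the sources at hand do not say what these controls received. Laser microdissection of the cortex gave 4 libraries each of arterioles, glomeruli, post-capillary venules and peritubular capillaries, the last cut from slides stained with isolectin B4 and the others from hematoxylin-stained slides, with a smaller area cut for arterioles and peritubular capillaries. The reference was 4 libraries of whole kidney sections. Libraries held between 4639090 and 12283098 counts and are named below by their group with the column number of the table (93, 96, 98 or 100). Values listed for a group follow that order, and they are CPM, that is counts relative to a library total scaled by the trimmed mean of M-values (TMM). Per the labels the libraries are biological replicates, without a statement of which mouse gave which, so the p-values measure the spread between these libraries. In the study's methods, slides of each mouse gave all 4 compartments, and each column number recurs in every group. Libraries of different groups may therefore share a mouse, which the main test did not model. A fit with the column number as a replicate block is given in the last section. A microdissected piece holds every cell inside the cut line: the summed CPM of 8 smooth muscle markers was 18260 to 43620 in arterioles against 266.1 to 314.3 in whole kidney, that of 8 podocyte markers 7224 to 8482 in glomeruli against 187.2 to 214.4, and that of 8 proximal tubule markers 62610 to 117600 in peritubular capillaries against 34680 to 36160. In such samples, fewer cells of a type and less RNA per cell cannot be told apart. Whole kidney sections also hold medulla, and they were amplified with fewer PCR cycles than the microdissected samples, so compartment and preparation cannot be told apart in any comparison with whole kidney.

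The sequences just upstream of 4 of the 5 Hox genes called below are shown because these genes moved in opposite directions within the same libraries, and 3 of them lie in the Hoxd cluster. Each line gives the 250 bases before the RefSeq transcription start in build GRCm38.p6, read 5′ to 3′ on the strand of the gene, and capitals mark a CCAAT or TATAAA motif on either strand. The Hoxa5 sequence lies at chr6:52204588-52204837 on the minus strand, and on the plus strand the Hoxd4 sequence lies at chr2:74721728-74721977, that of Hoxd9 at chr2:74697513-74697762 and that of Hoxd10 at chr2:74691641-74691890. Hoxc6, the fifth gene called, has no entry in the promoter table used.
Hoxa5: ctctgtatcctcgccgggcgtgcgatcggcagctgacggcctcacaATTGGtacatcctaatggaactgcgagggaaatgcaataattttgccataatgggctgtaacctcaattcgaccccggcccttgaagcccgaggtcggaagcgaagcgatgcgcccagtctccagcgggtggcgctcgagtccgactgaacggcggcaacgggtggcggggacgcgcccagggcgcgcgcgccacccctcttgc
Hoxd4: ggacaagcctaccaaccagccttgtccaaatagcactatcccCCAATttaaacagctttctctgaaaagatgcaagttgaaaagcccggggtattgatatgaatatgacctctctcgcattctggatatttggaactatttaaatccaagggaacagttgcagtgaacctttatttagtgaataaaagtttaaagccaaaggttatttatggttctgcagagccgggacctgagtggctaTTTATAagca
Hoxd9: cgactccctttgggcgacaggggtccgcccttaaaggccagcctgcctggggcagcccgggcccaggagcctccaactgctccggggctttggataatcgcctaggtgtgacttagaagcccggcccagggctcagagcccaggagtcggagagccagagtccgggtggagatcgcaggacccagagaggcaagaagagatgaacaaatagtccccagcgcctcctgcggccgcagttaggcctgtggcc
Hoxd10: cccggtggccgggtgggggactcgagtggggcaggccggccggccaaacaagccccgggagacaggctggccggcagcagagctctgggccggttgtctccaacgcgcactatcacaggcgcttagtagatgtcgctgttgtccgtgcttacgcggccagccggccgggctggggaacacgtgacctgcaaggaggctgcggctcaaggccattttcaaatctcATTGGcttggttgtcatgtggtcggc
The Hoxa5 stretch held 28 CG dinucleotides and was 63.6% GC, and those of Hoxd10 and Hoxd9 held 20 and 13 CG at 65.6% and 65.2% GC. The Hoxd4 stretch differed from these 3, with 3 CG and 40.4% GC. CCAAT was found in the Hoxa5, Hoxd4 and Hoxd10 stretches and TATAAA in that of Hoxd4 alone among the 4; these letters were not in the Hoxd9 window. Over the 23 promoters of 21 Hox genes in the table, 56.5% held CCAAT and 17.4% TATAAA, against 33.9% and 12.4% of all 32851 promoters of the same length. The homeodomain core TAATTA was found in 8.70% of the Hox promoters and 4.84% of all, and the Pbx-Hox motif TGATTNAT in 8.70% and 2.83%. Motifs were sought on both strands, and TAATTA and TGATTNAT were free to overlap. Each 8.70% stood for 2 promoters only. Among the Hox promoters, TAATTA was held by those of Hoxd11 alone, and TGATTNAT by a Hoxd11 promoter and that of Hoxa2. The median Hox promoter held 12 CG against 6 in all promoters.

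Hox mRNA was read in all 5 groups. By mean share of the summed Hox CPM, paralogs 6 to 8 led in whole kidney (46.51%) and venules (50.03%). They also led in glomeruli (41.53%) and peritubular capillaries (40.75%), and paralogs 4 to 5 led in arterioles (46.04%). Whole kidney libraries held at least 1 count of 30 to 31 members, and 25 members had at least 10 counts in all 4 of them. In microdissected libraries the number with at least 1 count was 22 to 27 in glomeruli, 23 to 27 in venules, 19 to 24 in arterioles and 19 to 23 in peritubular capillaries. Only Hoxa5, Hoxa7, Hoxa9, Hoxd4 and Hoxd8 had at least 10 counts in all 16 microdissected libraries. These 5 were 20% of the 25 members well counted in whole kidney, beside 20.7% (2581 of 12458) of all genes, a like share.

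The far posterior genes were at or near 0. Hoxc12, Hoxd12 and Hoxd13 had no count in any of the 20 libraries, which allows a pooled level of up to 0.0178 CPM (3 counts, counting error only). Hoxa13 and Hoxd3 had 1 count each, Hoxb1 had 3 and Hoxc13 had 8, all of these 8 in arteriole 98. Exons of Gm28230 on the same strand cover 60.5% of the last 500 bases of Hoxd3, so its reads may be split or discarded. Hoxa2 and Hoxa6 were low as well, with 50 and 91 counts over all libraries. Hoxa6 was read in whole kidney at 0.506, 3.00, 2.40 and 2.17 CPM and with at most 1 count in any microdissected library. In all, 10 members did not pass the filter on low counts, so 27 were tested against whole kidney and 26, all of these but Hoxc11, among the compartments.

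**Figure D1:**
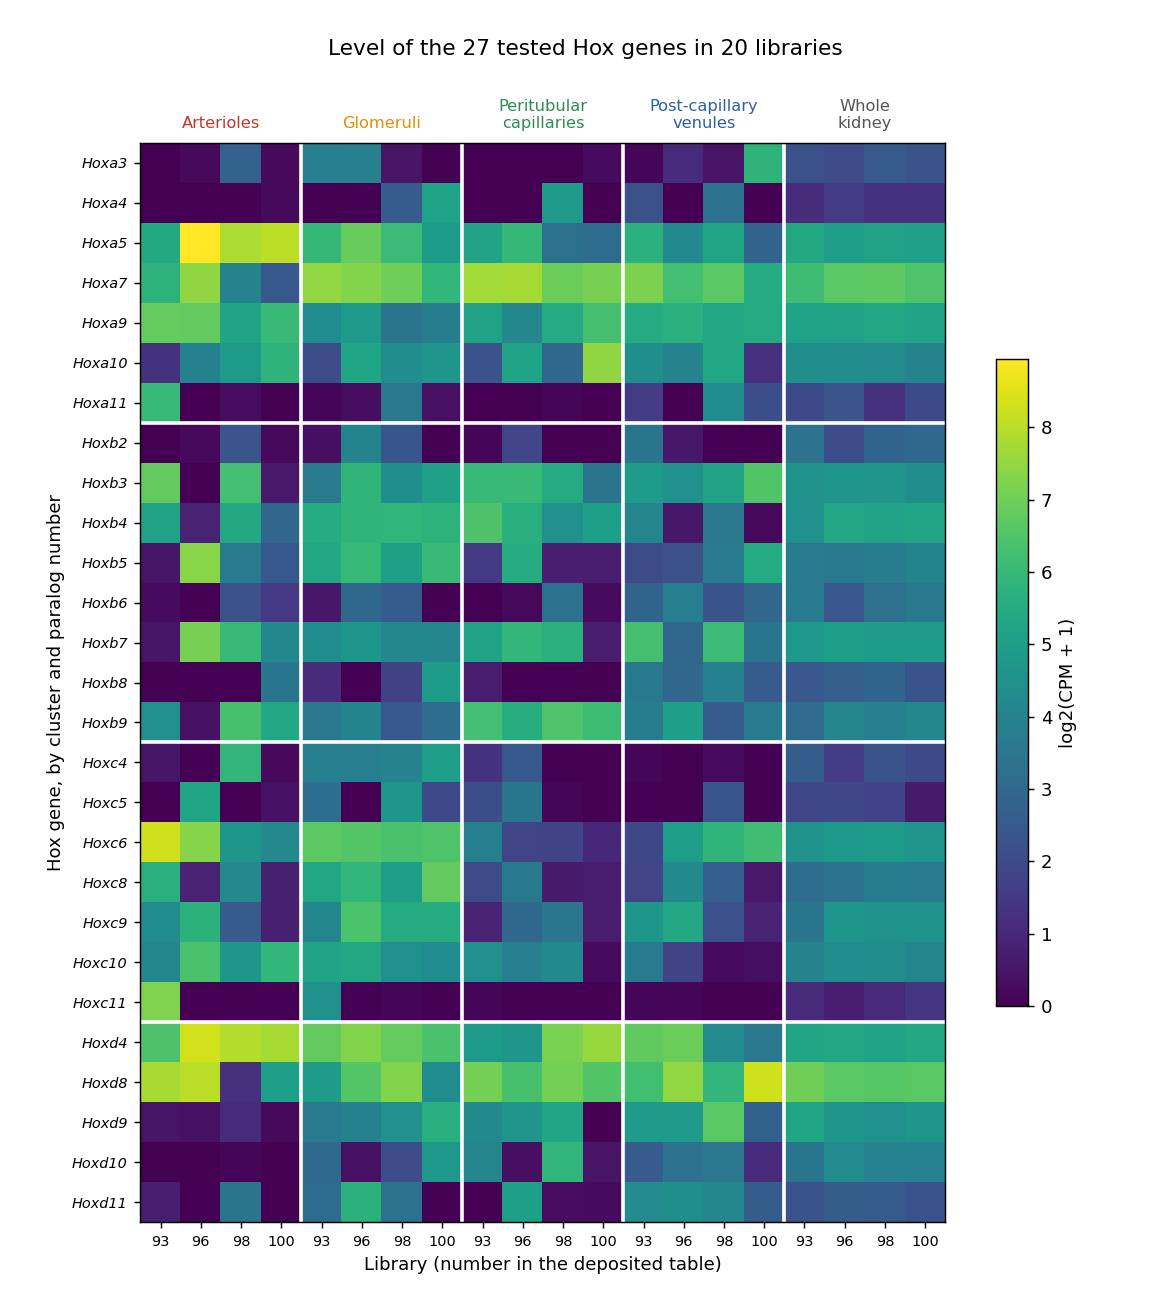
Level of the 27 Hox genes tested against whole kidney as log2(CPM + 1), with 1 row per gene in cluster order and 1 column per library in group order. The whole kidney columns resemble each other, whereas single microdissected libraries differ from their neighbours, as Hoxc11 does in arteriole 93 (147 CPM) against 0 in the other 3 arteriole libraries.

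Ranked by the mean of the 5 group means, Hoxd8 was highest with 114.3 CPM, followed by Hoxa7 with 108.8, Hoxd4 with 105.4, Hoxa5 with 83.7 and Hoxc6 with 58.4. Reads of this protocol start close to the poly(A) tail, so CPM is not divided by length here, although genes may still differ in how well they are captured. Hoxd8 had 126.4, 98.8, 96.1 and 98.9 CPM in whole kidney and 132.5, 79.8, 134.2 and 89.6 in peritubular capillaries. It was far more uneven in arterioles, at 220.2, 258.8, 1.35 and 32.1, in glomeruli, at 28.8, 92.2, 150.2 and 19.6, and in venules, at 75.1, 179, 57.6 and 314.5. The groups overlapped, and Hoxd8 was not called in any contrast. Hoxa7 had 71.8, 100.1, 103.8 and 88.0 CPM in whole kidney, and its 4 capillary values, 208.9, 210.9, 121.4 and 138.9, were all higher. Its glomerular values were 178.4, 154.8, 124.8 and 59.8, its venule values 143.1, 77.3, 101.1 and 44.1 and its arteriole values 54.1, 174.8, 14.95 and 4.46. Hoxa7 was not called in any contrast either; the last 500 bases of its coding transcripts share 33.6% of their length with Hoxaas3 on the opposite strand, and whether the counting used strand is not stated in the sources at hand.

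Against whole kidney, arterioles had more mRNA of an anterior pair of genes, Hoxa5 and Hoxd4, and almost none of a neighbouring posterior pair, Hoxd9 and Hoxd10. A gene was called in this comparison at an adjusted p (FDR) under 0.05 in edgeR's quasi-likelihood test and a log2 fold change beyond 1. Of the 27 members tested, 2 were called higher (7.41%) and 2 lower (7.41%), whereas of all 13813 genes tested 5.78% were called higher and 5.5% lower in arterioles. The shares among the members were therefore close to the background. The 2 pairs do not stand for a trend along the clusters. Positive log2 fold changes were found for 1 of 3 tested members of paralogs 1 to 3 (median -1.31). They were found for 5 of 7 of paralogs 4 to 5 (2.05) and 4 of 7 of paralogs 6 to 8 (0.29). For paralogs 9 to 10 it was 4 of 7 (0.41), and for 11 to 13 it was 2 of 3 (2.42).

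Hoxa5, which patterns the lung and the cervical and thoracic skeleton, had 42.2, 492.7, 231.8 and 265.5 CPM in arterioles (258.1 ± 184.8, SD, n = 4) against 42.0, 30.9, 35.0 and 33.4 in whole kidney (35.3 ± 4.77). All 4 arteriole values lay above those of whole kidney, but arteriole 93 only just did, and on plain library totals that library fell below all 4. The log2 fold change was 2.87 ± 0.86 (SE; edgeR FDR = 0.0265). The call was lost without arteriole 96 (log2 fold change 2.34, edgeR FDR = 0.0905) and without any 1 of the whole kidney libraries (edgeR FDR = 0.0714, 0.0818, 0.0785 and 0.0797).

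Hoxd4, an anterior gene of the Hoxd cluster, had 86.3, 320.7, 241.0 and 212.5 CPM in arterioles (215.1 ± 97.3) against 37.1, 38.8, 35.9 and 39.7 in whole kidney (37.9 ± 1.70). The groups did not overlap, on TMM-scaled or on plain totals. The log2 fold change was 2.51 ± 0.78 (SE; edgeR FDR = 0.0327), and the call was again lost without arteriole 96 (2.24, edgeR FDR = 0.0664) or any 1 whole kidney library (edgeR FDR up to 0.0871). Exons of Gm28230, on the same strand, cover 10.99% of the last 500 bases of the Hoxd4 coding transcripts, so some Hoxd4 reads may be split or discarded.

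Hoxd9 and Hoxd10, posterior genes with roles in the hindlimb and its motor neurons, were at the other extreme. Hoxd9 had 2, 2, 10 and 1 counts in arterioles, or 0.426, 0.322, 1.12 and 0.179 CPM, against 37.4, 25.6, 21.5 and 25.0 CPM in whole kidney. Hoxd10 had 1 count in arterioles, in library 98, against 10.2, 18.9, 14.6 and 14.6 CPM in whole kidney. Neither gene overlapped between the 2 groups. The log2 fold change was -5.67 ± 1.64 for Hoxd9 (SE; edgeR FDR = 0.0220) and -8.22 ± 2.33 for Hoxd10 (SE; edgeR FDR = 0.0196). From the pooled counts, 15 against 1170, Hoxd9 was 45.3-fold higher in whole kidney, with a 95% counting interval of 27.4 to 81.2. For Hoxd10, with 1 count against 632, the ratio was 367.1 and the interval 65.7 to 14520, for counting error only. Hoxd9 lost its call without whole kidney 93 (log2 fold change -5.49, edgeR FDR = 0.0537), and Hoxd10 without arteriole 96 (-7.94, edgeR FDR = 0.0513) and in the version 4 form of the test (edgeR FDR = 0.0594).

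**Figure D2:**
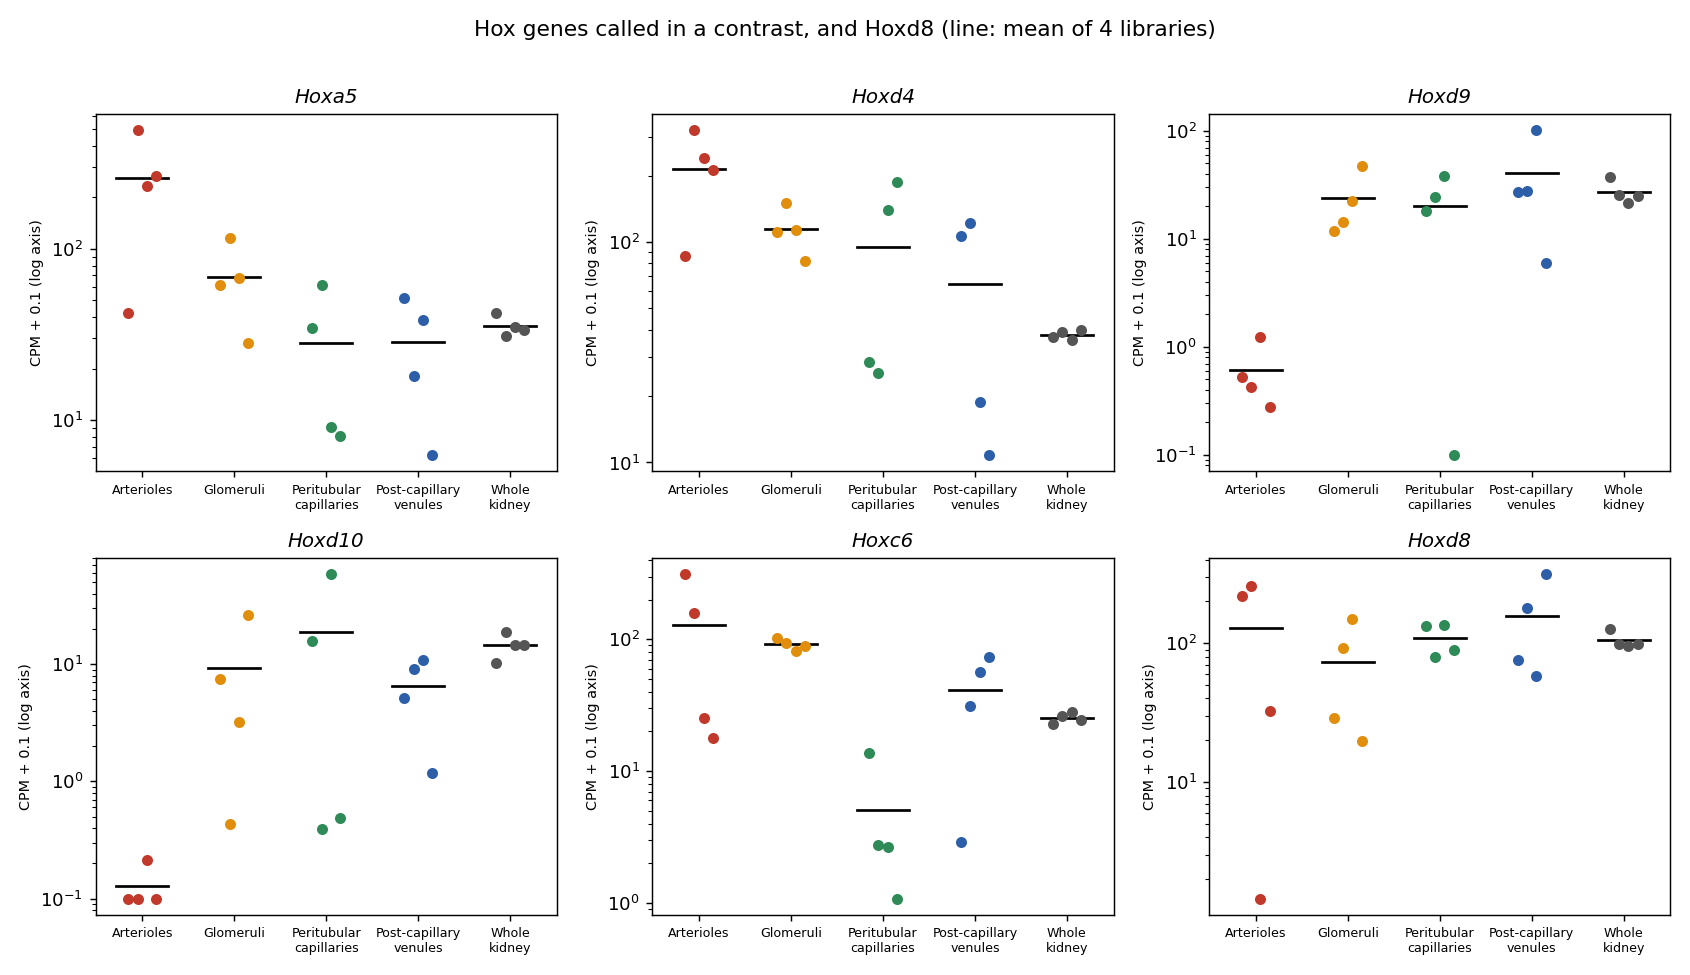
CPM + 0.1 on log axes for the 5 called Hox genes and Hoxd8, 1 point per library and a line at the mean of the 4 libraries of a group. Hoxd9 and Hoxd10 lie at most at 1.12 and 0.112 CPM in arterioles, and Hoxc6 lies at 0.978 to 13.6 CPM in peritubular capillaries, under all 4 whole kidney values.

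Markers of other cell types also differed between arterioles and whole kidney, and their part in the Hox differences was not tested. The summed CPM of 6 fibroblast markers was 2007 to 4750 in arterioles against 275.6 to 299.6 in whole kidney, with all 6 markers at 10 counts or more. The summed CPM of 8 collecting duct markers was 116 to 360.9 in arterioles, where 5 of the 8 had 10 counts, against 420.2 to 492.2 in whole kidney. Such differences were not limited to arterioles. The collecting duct sum was 34.58 to 85.4 in glomeruli, and the fibroblast sum was 1002 to 2711 in venules.

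In the other 3 compartments no member was called against whole kidney by edgeR's test on all 20 libraries or by the DESeq2 Wald test. Fits of only the 8 libraries compared did call members: Hoxb5, Hoxc6, Hoxc8 and Hoxd4 higher in glomeruli, Hoxb9 higher and Hoxa3, Hoxa11 and Hoxb8 lower in peritubular capillaries, and Hoxc4 lower in venules. These fits also called 1508 of 13041 genes higher in glomeruli and 765 of 12919 lower in venules. In peritubular capillaries they called 314 of 12705 genes higher and 1066 lower. The version 4 form of edgeR's test called Hoxc8 higher in glomeruli, beside 692 of 13813 genes. At an unadjusted p under 0.05 in the fit of all 20 libraries there were 4 of 27 in peritubular capillaries, 1 in venules and 1 in glomeruli, beside 12.4%, 9.36% and 15% of all genes at that p. At the threshold for a call in that fit, 1.59% of all genes were called higher and 1.47% lower in glomeruli. The shares were 0.0869% and 0.00724% in peritubular capillaries, and 0.203% and 0.0217% in venules. The glomerular gene was Hoxd4, at 111.1, 150.7, 113.6 and 82.2 CPM, all above whole kidney (log2 fold change 1.59 ± 0.75, SE; edgeR FDR = 0.296). The 4 capillary genes, Hoxa3, Hoxa11, Hoxb8 and Hoxc6, all had negative log2 fold changes and no overlap with whole kidney. The share of all genes without such overlap is not given here, so their number is not read as a result. Hoxa3 and Hoxa11 had 1 count each over the 4 capillary libraries. The venule gene was Hoxc4, at no more than 0.185 CPM in any venule library against 1.96 to 5.27 in whole kidney (edgeR FDR = 0.412). The median log2 fold change of the tested members was 0.73 in arterioles and 0.71 in glomeruli, beside 0.22 and 0.25 over all genes tested. In peritubular capillaries it was -0.07 beside 0.18, and in venules 0.19 beside 0.19.

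**Figure D3:**
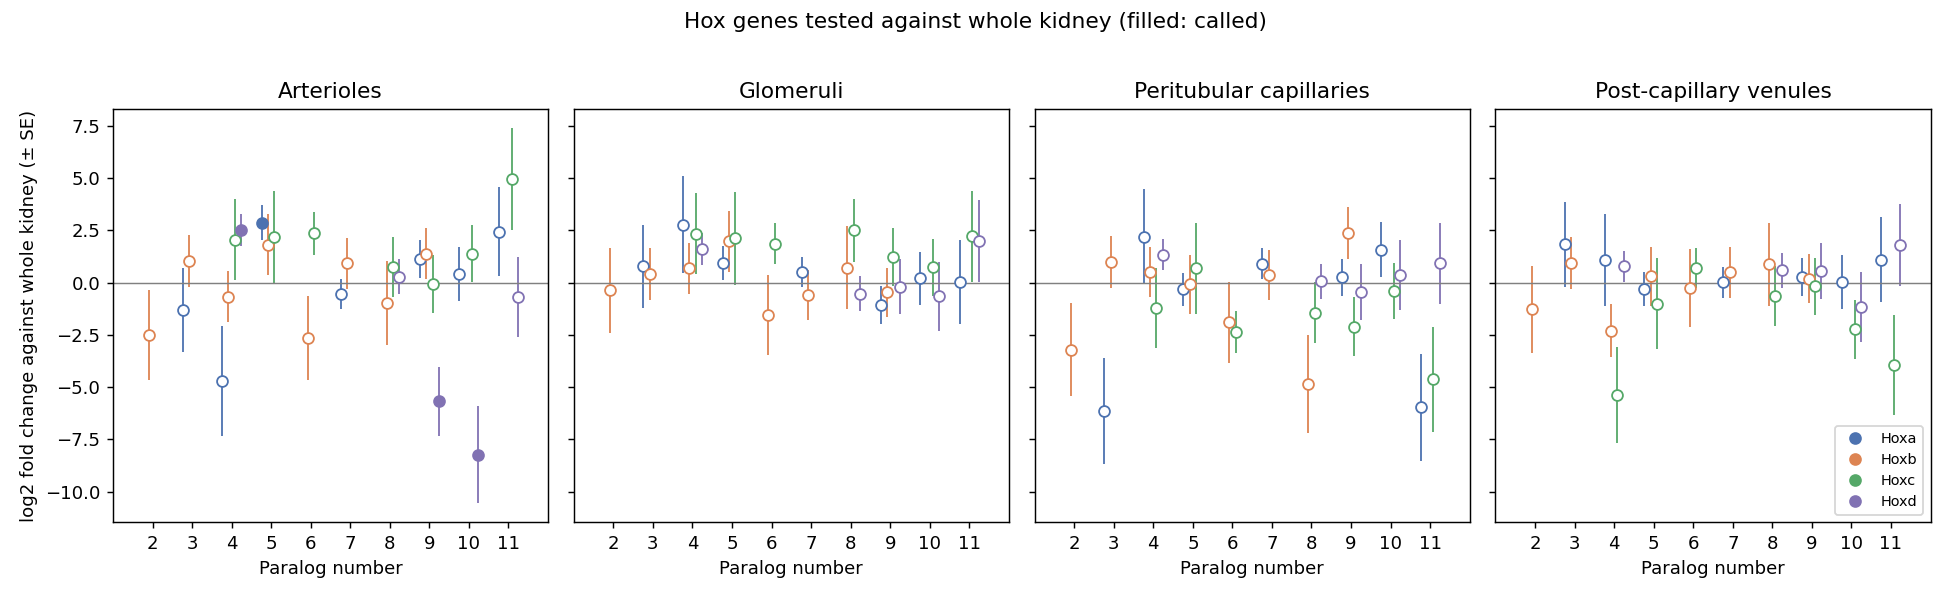
Log2 fold change against whole kidney (vertical axis, bars ± SE) by paralog number for the 27 tested Hox genes in each compartment, coloured by cluster, with called genes filled. The filled points, Hoxa5 at 2.87, Hoxd4 at 2.51, Hoxd9 at -5.67 and Hoxd10 at -8.22, are all in the arteriole panel.

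The 4 compartments were then set against each other, each with the equal-weight mean of the other 3 on the log scale, which leaves out whole kidney and its different library preparation. Slide stain still set peritubular capillaries apart, and cut area set arterioles and peritubular capillaries apart. Compartment and these steps cannot be told apart here. A gene was called here at an edgeR FDR under 0.05. In arterioles, 1 of 26 members was called higher (3.85%) and 2 lower (7.69%), beside 8.11% and 3.23% of all 12179 genes tested. The member that was higher was again Hoxa5, with a log2 fold change of 2.76 ± 0.66 (SE; edgeR FDR = 0.00395). Its levels elsewhere were 61.5, 115.1, 67.8 and 28.1 CPM in glomeruli, 34.3, 61.4, 8.98 and 8.02 in peritubular capillaries, and 51.6, 17.99, 38.2 and 6.16 in venules. Arterioles 96, 98 and 100 lay above all 12 of these values, and arteriole 93 lay among them. In pairs, Hoxa5 was higher in arterioles than in peritubular capillaries (log2 fold change 3.19, edgeR FDR = 0.0268) and venules (3.17, edgeR FDR = 0.0498); against glomeruli the log2 fold change was 1.92 ± 0.92 (SE; edgeR FDR = 0.245). Without arteriole 96 Hoxa5 was no longer called (log2 fold change 2.25, edgeR FDR = 0.0526).

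The members that were lower in arterioles were Hoxd9, with a log2 fold change of -5.65 ± 1.87 (SE; edgeR FDR = 0.0424), and Hoxd10, with -7.72 ± 2.58 (SE; edgeR FDR = 0.0447). Hoxd9 had 11.8, 14.4, 22.1 and 47.4 CPM in glomeruli, 18.02, 24.3, 38.5 and 0 CPM in peritubular capillaries and 26.99, 27.95, 101.0 and 5.89 in venules, so that capillary 100 alone lay below the arterioles. Hoxd10 had 7.31, 0.332, 3.12 and 26.03 CPM in glomeruli, 15.7, 0.295, 58.8 and 0.391 in peritubular capillaries, and 5.04, 8.99, 10.7 and 1.07 in venules. Every one of these 12 Hoxd10 values lay above the arterioles, some by a few counts only. Both calls stood near the threshold: Hoxd9 was lost in 13 and Hoxd10 in 12 of the 16 fits that left out 1 library, with edgeR FDR up to 0.0878 and 0.113. Hoxd9 was also lost with no filter on low counts and with a replicate block, and Hoxd10 with these, with an independent filter and in the version 4 form, with edgeR FDR up to 0.0682 and 0.1304.

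Hoxd4 showed a different order from Hoxa5. It had 28.6, 25.4, 139.1 and 186.8 CPM in peritubular capillaries and 106.6, 122.4, 18.7 and 10.7 in venules, each group split into a pair of high and a pair of low libraries. Its mean fell in the order arterioles (215.1 ± 97.3), glomeruli (114.4 ± 28.1), peritubular capillaries (94.96 ± 80.9), venules (64.6 ± 58.1) and whole kidney (37.9 ± 1.70). No neighbours in that order differed past the threshold in edgeR's test, and against the other 3 compartments the arteriole log2 fold change was 1.27 ± 0.62 (SE; edgeR FDR = 0.161). Hoxd4 made up 28.1%, 55.3%, 95.04% and 86.8% of all Hoxd CPM in arterioles, and 17.3% to 21.8% in whole kidney.

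In peritubular capillaries, Hoxc6, a gene of thoracic identity, was the 1 member of 26 called lower (3.85%), and none was called higher, beside 2.91% and 4.3% of all genes. Hoxc6 had 13.6, 2.66, 2.57 and 0.978 CPM in peritubular capillaries (4.94 ± 5.79), against 102.8, 94.0, 81.7 and 88.8 in glomeruli (91.8 ± 8.89), 313.6, 159.5, 25.2 and 17.7 in arterioles (129.0 ± 139.3) and 2.80, 31.1, 56.7 and 73.3 in venules (41.0 ± 30.8). Capillaries 96, 98 and 100 lay below all 12 other microdissected libraries, and venule 93 lay below capillary 93. The log2 fold change was -3.99 ± 1.14 (SE; edgeR FDR = 0.0237), and the call was lost without capillary 96, 98 or 100 (edgeR FDR = 0.0769, 0.0816 and 0.0819). In pairs, Hoxc6 was higher than in peritubular capillaries both in arterioles (log2 fold change 4.70, edgeR FDR = 0.0108) and in glomeruli (4.21, edgeR FDR = 0.0371), whereas the difference of -3.05 ± 1.16 from venules did not pass (SE; edgeR FDR = 0.293). Whole kidney, at 22.8, 26.3, 28.03 and 24.4 CPM, also lay above all 4 capillary values (log2 fold change -2.35, edgeR FDR = 0.328). Against the other 3 compartments, 4 of 5 fibroblast, 4 of 7 smooth muscle and 4 of 10 pan-endothelial markers were called lower in peritubular capillaries. Of the proximal tubule markers, 7 of 8 were called higher. The part of such cells in the Hoxc6 difference was not tested.

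No member was called in glomeruli or venules against the other compartments by edgeR's main test, with 2 and 3 of 26 members at an unadjusted p under 0.05, beside 15.3% and 12.3% of all genes at that p. The version 4 form of the test called Hoxc8 higher in glomeruli, beside 501 of 12179 genes. Among all genes, 2.46% were called higher and 1.33% lower in glomeruli, and 0.369% and 0.181% in venules. The lowest FDR in both belonged to Hoxc4, which had 13.4, 13.04, 14.9 and 30.8 CPM in glomeruli (log2 fold change 3.84, edgeR FDR = 0.192) and 0.112, 0, 0.185 and 0 in venules (-6.40, edgeR FDR = 0.279). Arterioles held Hoxc4 at 0.426, 0, 58.5 and 0.179 CPM, nearly all of it in arteriole 98. The DESeq2 Wald test called 1 member in glomeruli, Hoxa9, which was lower there, and none in venules. It called 494 of 12179 genes lower in glomeruli.

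By cluster, the mean share of the summed Hox CPM ran over the 5 groups from 27.3% to 38.2% for Hoxa, 16.7% to 26.7% for Hoxb and 25.2% to 40.1% for Hoxd, but from 3.95% to 28.3% for Hoxc. Hoxc genes made up 29.4%, 24.3%, 24.3% and 35.4% of the summed Hox CPM in glomeruli and 5.61%, 5.98%, 3.91% and 0.296% in peritubular capillaries, with 11.3%, 14.02%, 15% and 13.7% in whole kidney. These 3 groups did not overlap. Venules had 6.12%, 13.4%, 10.5% and 10.2%, and arterioles ranged from 10.02% to 42.2%, the highest value being that of arteriole 93. In summed CPM, Hoxc reached 260.4 ± 38.1 in glomeruli and 31.8 ± 20.8 in peritubular capillaries against 80.7 ± 11.3 in whole kidney (SD, n = 4), and on plain totals 329.3 ± 34.5, 29.9 ± 21.1 and 95.2 ± 12.1, in the same order. Over all genes, the log2 fold change against whole kidney was positive for 56.8% in glomeruli, 53.5% in arterioles, 54.9% in peritubular capillaries and 57.1% in venules. All 7 tested Hoxc genes had a positive log2 fold change against whole kidney in glomeruli (median 2.11), as did 6 of 7 in arterioles, but only 1 of 7 in peritubular capillaries (median -1.44) and 1 of 7 in venules. None of these genes was called on its own against whole kidney in edgeR's test on all 20 libraries, whereas Hoxc6 and Hoxc11 were called in arterioles by its version 4 form, Hoxc6 there by DESeq2, and Hoxc4, Hoxc6 and Hoxc8 in the other fits named above. With neighbours of 1 cluster the 7 are not independent.

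The means of Hoxc8, Hoxc9 and Hoxc10 had the same order, although single libraries overlapped whole kidney in peritubular capillaries for all 3 genes and in glomeruli for Hoxc9 and Hoxc10. Hoxc8 had 38.9, 58.1, 30.6 and 109.7 CPM in glomeruli, 3.11, 11.2, 0.583 and 0.587 in peritubular capillaries and 8.20, 9.10, 12.8 and 12.1 in whole kidney. Hoxc9 had 16.2, 84.0, 44.2 and 45.4 CPM in glomeruli and at most 10.5 in a capillary library, beside 10.1 to 24.99 in whole kidney. Hoxc10 lay at 19.2 to 39.0 CPM in glomeruli, 14.9 to 20.2 in whole kidney and 0.196 to 21.4 in peritubular capillaries, beside 16.4 to 81.5 in arterioles and 0.185 to 11.8 in venules.

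By paralog number, the glomerular libraries resembled each other closely in the summed share of paralogs 4 and 5, but not in every gene of that sum. In glomeruli Hoxa4 had 0, 0, 5.07 and 35.95 CPM, and Hoxc5 had 8.5, 0, 25.6 and 2.98. Paralogs 4 and 5 made up 34.5%, 33.5%, 35.3% and 35.6% of Hox CPM in glomeruli, above all 4 whole kidney values, 21.1%, 20.9%, 20.7% and 22.4%. In arterioles this share was 50.6%, 59.2% and 61.7% in libraries 96, 98 and 100 but 12.7% in arteriole 93. All 7 tested genes of these paralogs had a positive log2 fold change in glomeruli against whole kidney (median 1.96), beside 56.8% of all genes. The other bands had 2 of 3 positive for paralogs 1 to 3, 4 of 7 for 6 to 8, 3 of 7 for 9 to 10 and 3 of 3 for 11 to 13. Hoxc4 and Hoxc5 were also among the Hoxc genes counted above, so the 2 results are not separate. Hoxb4 and Hoxb5 are examples. Hoxb4 had 45.7, 56.2, 57.7 and 53.5 CPM in glomeruli, 21.5, 39.1, 34.9 and 38.4 in whole kidney, 86.99, 47.5, 21.9 and 32.3 in peritubular capillaries, 34.96, 0.805, 41.03 and 6.78 in arterioles and 15.9, 0.486, 10.6 and 0.134 in venules. Its glomerular values lay above and its venule values below those of whole kidney. Hoxb5 had 39.2, 63.2, 33.1 and 65.6 CPM in glomeruli and 11.95, 11.3, 12.9 and 15.4 in whole kidney, again without overlap. Elsewhere Hoxb5 rested on single libraries, with 0.426, 163.1, 12.1 and 4.46 CPM in arterioles, 1.86, 45.9, 0.700 and 0.587 in peritubular capillaries and 3.25, 3.65, 11.67 and 44.5 in venules. Neither gene was called in the main test, and Hoxb5 was called in glomeruli when only the 8 libraries compared were fitted.

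**Figure D4:**
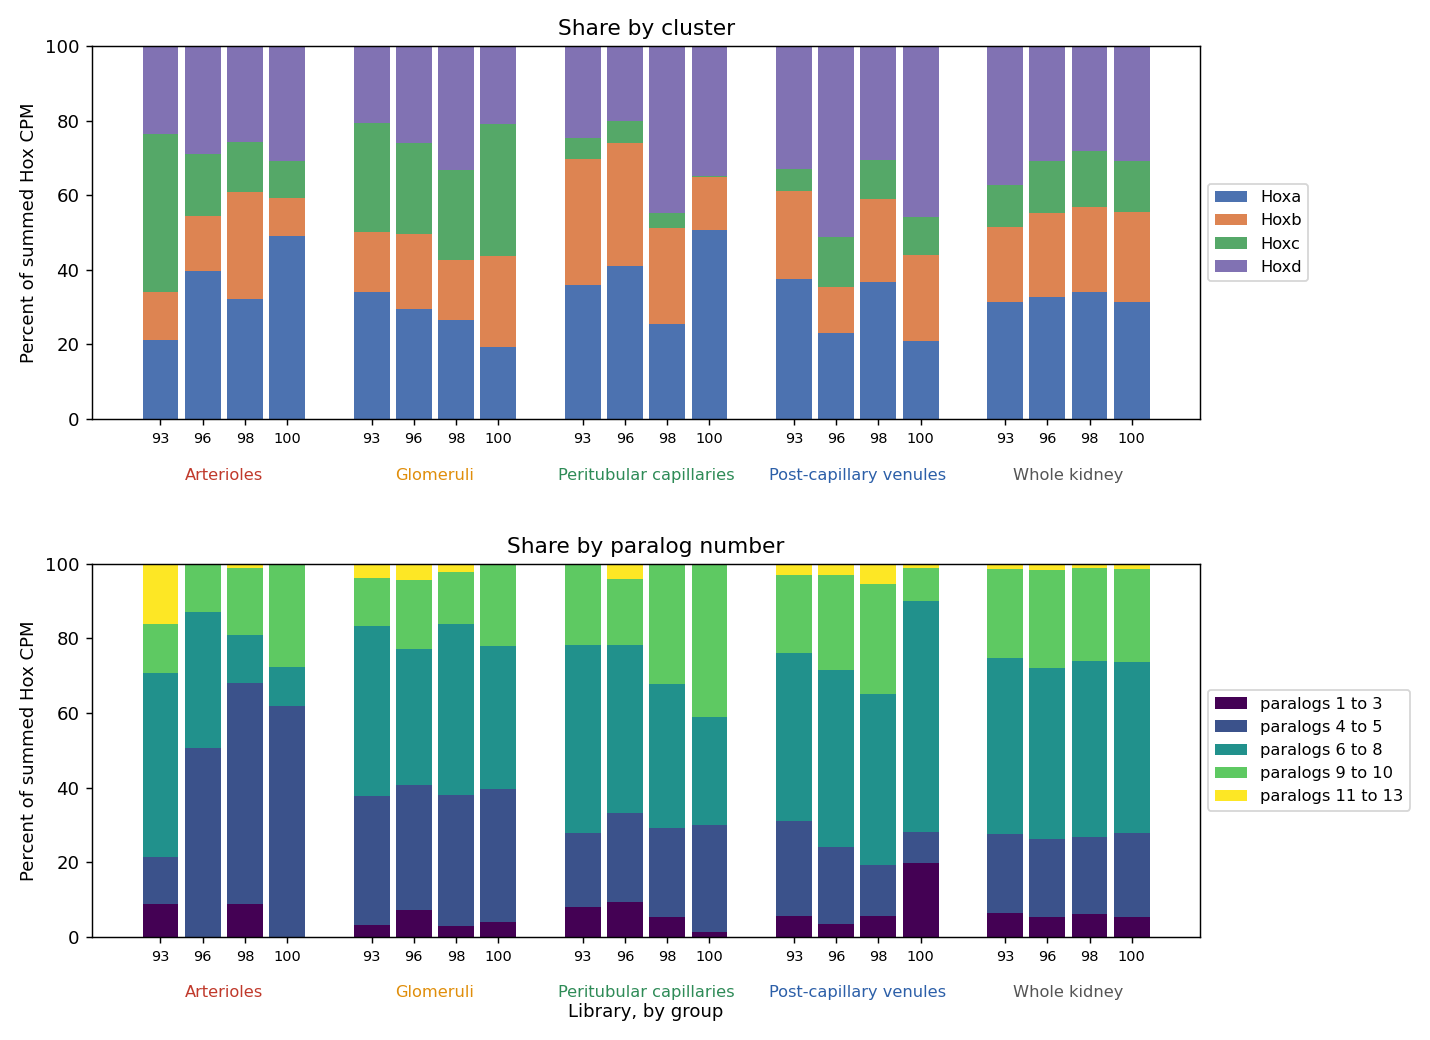
Percent of the summed Hox CPM held by each cluster (upper panel) and by each band of paralog numbers (lower panel), 1 stacked bar per library. The Hoxc band covers 24.3% to 35.4% in glomeruli and 0.296% to 5.98% in peritubular capillaries, and paralogs 4 to 5 cover 33.5% to 35.6% in glomeruli.

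Of the remaining highly read members, Hoxa9 and Hoxb9, paralogs of each other, both had their lowest mean in glomeruli, whereas the highest mean was that of arterioles for Hoxa9 and of peritubular capillaries for Hoxb9. Hoxa9 had 112.1, 111.6, 36.4 and 64.3 CPM in arterioles, 19.2, 27.6, 9.82 and 12.8 in glomeruli, 34.6, 16.8, 44.7 and 77.7 in peritubular capillaries, 44.1, 50.4, 38.9 and 43.5 in venules and 35.9, 35.02, 39.7 and 36.4 in whole kidney. All 4 glomerular values lay below those of whole kidney. Hoxb9 had 76.3, 46.6, 87.6 and 69.2 CPM in peritubular capillaries (69.9 ± 17.3), above all 4 values of whole kidney, 7.80, 16.01, 13.98 and 16.4 (13.6 ± 3.99), and of glomeruli, 10.8, 15.6, 4.52 and 8.27. In venules Hoxb9 had 12.7, 31.8, 5.002 and 12.3 CPM and in arterioles 21.7, 0.322, 80.6 and 39.1. Neither gene was called by the main test.

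Hoxa10, Hoxb3 and Hoxb7 showed no order that rose above the spread between libraries. Hoxa10 had 1.49, 14.3, 28.2 and 55.5 CPM in arterioles, 3.31, 38.2, 19.95 and 24.6 in glomeruli, 3.85, 35.3, 6.996 and 176.8 in peritubular capillaries, 21.1, 14.95, 39.3 and 1.34 in venules and 20.7, 20.2, 18.7 and 15.2 in whole kidney. Hoxb3 had 110, 0, 77.1 and 0.535 CPM in arterioles, 12.02, 57.1, 20.8 and 33.8 in glomeruli, 62.1, 64.01, 44.2 and 9.78 in peritubular capillaries, 28.7, 21.9, 36.7 and 90.3 in venules and 22.6, 25.1, 24.5 and 20.2 in whole kidney. Hoxb7 had 0.426, 136.3, 63.9 and 16.95 CPM in arterioles, 19.3, 24.97, 16.5 and 15.8 in glomeruli, 36.5, 60.2, 51.4 and 0.587 in peritubular capillaries, 77.7, 6.69, 67.99 and 10.2 in venules and 26.02, 30.9, 29.9 and 29 in whole kidney. Apart from Hoxb7 in glomeruli, which lay below whole kidney in all 4 libraries, each compartment overlapped whole kidney for these genes. The last 500 bases of Hoxb3 share 66.2% with Hoxb3os on the opposite strand.

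Among the less read members, many levels in a compartment came from 1 library. Of the members with at least 50 counts in a group, 1 library held over 90% of the counts for 7 of 22 in arterioles, 2 of 27 in glomeruli, 5 of 22 in peritubular capillaries and 2 of 24 in venules, and for 0 of 28 in whole kidney. Hoxc11, a partner of Hoxa11 and Hoxd11 in the kidney paralog group, had 146.9 CPM in arteriole 93 and no count in the other 3 arterioles. Hoxa11 had 62.5 CPM in the same library and 0, 0.225 and 0 in the others, and the third member, Hoxd11, had 10 CPM in arteriole 98 and at most 0.640 elsewhere in arterioles. In whole kidney all 3 were steady and low, at 1.44 to 4.15 CPM for Hoxa11, 0.691 to 1.70 for Hoxc11 and 3.78 to 5.18 for Hoxd11. Exons of Gm28309 on the same strand cover 53.2% of the last 500 bases of Hoxd11, so its reads may be split or discarded. Hoxa3 had 55.2 CPM in venule 100 and at most 1.09 in the other venules, and Hoxa4 had 27.8 CPM in capillary 98 and 0 in the other capillaries. The remaining tested members, Hoxb2, Hoxb6, Hoxb8 and Hoxc5, ranged from 0 to 37.99 CPM in microdissected libraries and from 0.567 to 12.2 in whole kidney. The last 500 bases of Hoxa3, Hoxa4 and Hoxb2 share 71.7%, 51% and 100% with genes on the opposite strand. The median coefficient of variation of members at 10 CPM or more was 1.10 in arterioles, 0.4996 in glomeruli, 0.706 in peritubular capillaries, 0.755 in venules and 0.140 in whole kidney, close to 1.15, 0.576, 0.837, 0.723 and 0.140 over all genes at that level.

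The sum over all members depended on the scaling. On TMM-scaled totals it was 1272 ± 532 CPM in arterioles, 934.4 ± 173 in glomeruli, 804.4 ± 19.2 in peritubular capillaries, 703.6 ± 26.4 in venules and 595.7 ± 16.4 in whole kidney (SD, n = 4). On plain totals glomeruli came first with 1185 ± 204, then arterioles with 941.9 ± 175, and whole kidney, at 704.0 ± 15.6, lay above peritubular capillaries at 691.4 ± 132 and venules at 699.5 ± 57.9. No order of the compartments in total Hox mRNA is therefore given.

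The TALE cofactors of Hox proteins were read as well. Of 11 cofactor genes, 10 were tested against whole kidney, of which Meis2 was called higher in glomeruli, Tgif1 lower in arterioles and none in peritubular capillaries or venules. Over all genes, 1.59% were called higher in glomeruli and 5.5% lower in arterioles. Meis2, a partner of Hox and Pbx proteins on DNA, had 403.0 ± 43.8 CPM in glomeruli against 56.8 ± 10.96 in whole kidney (log2 fold change 2.83, edgeR FDR = 0.00161), higher in 4 of 4 libraries. Against the other compartments, Tgif2 in glomeruli and Tgif1 in venules missed the threshold (edgeR FDR = 0.0579 and 0.0942). Among the compartments, 9 cofactors were tested, with Pknox2 called higher in arterioles and Meis2 in glomeruli, beside 8.11% and 2.46% of all genes. The median log2 fold change of the cofactors in glomeruli against whole kidney was 2.32, beside 0.25 over all genes. It was also above that of all genes in arterioles (1.07 beside 0.22), peritubular capillaries (0.82 beside 0.18) and venules (0.38 beside 0.19).

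Of 20 noncoding genes of the Hox clusters, 12 were in the table and 6 were tested against whole kidney, with Hoxb5os and Hoxb3os called lower in arterioles and none in the other compartments, beside 5.5% of all genes called lower in arterioles. Hoxb5os had 0.0402 ± 0.0805 CPM in arterioles against 10.9 ± 3.17 in whole kidney (edgeR FDR = 0.0238), and Hoxb3os had 0.300 ± 0.182 against 20.3 ± 0.870 (edgeR FDR = 0.0468). Of the 4 tested among the compartments, Hoxb5os was called lower in arterioles, beside 3.23% of all genes. Hoxaas3 and Hoxa11os had 0 counts in all venule libraries against 1.73 and 1.73 CPM in whole kidney and did not pass (edgeR FDR = 0.293 for both). None of the 8 ParaHox and Evx genes in the table had enough counts to be tested.

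Of 17 partners of Hox genes in kidney development, 12 were tested against whole kidney, with Gata3 and Itga8 called higher and Gfra1 and Pax8 lower in arterioles, Gata3, Itga8 and Wt1 higher in glomeruli and none in the others. Over all genes, 5.78% were called higher and 5.5% lower in arterioles and 1.59% higher in glomeruli. Among the compartments, 10 were tested: Gata3, Itga8 and Six4 were called higher and Wt1 lower in arterioles, Itga8 and Wt1 higher in glomeruli, and Gata3 and Itga8 lower in peritubular capillaries. The shares over all genes were 8.11% higher and 3.23% lower in arterioles, 2.46% higher in glomeruli and 2.91% lower in peritubular capillaries. Wt1, the podocyte transcription factor, had 312.8 ± 108.9 CPM in glomeruli against 3.31 ± 4.81 in the other 12 microdissected libraries (log2 fold change 6.86, edgeR FDR = 1.69e-07). In arterioles, Gata3 was higher than in whole kidney (284.9 ± 121.3 against 24.6 ± 5.75 CPM, edgeR FDR = 0.00182), and Pax8, a tubule regulator, was lower (0.6002 ± 0.558 against 30.95 ± 3.28, edgeR FDR = 0.0146). Itga8, an integrin of mesangial and smooth muscle cells, was higher in arterioles than in the other compartments (log2 fold change 4.69, edgeR FDR = 9.23e-06), with values of 36.5 to 854.1 CPM that overlapped theirs.

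Of 31 trithorax and Polycomb genes, which maintain Hox states, 30 were tested. Against whole kidney, Cbx6 was called higher and Bmi1 and Jarid2 lower in arterioles, and none elsewhere, beside 5.78% and 5.5% of all genes in arterioles. Among the compartments, Cbx6 and Ash2l were called higher and Bmi1 and Jarid2 lower in arterioles, and in peritubular capillaries Jarid2 was called higher and Cbx6 lower. Over all genes, 8.11% were called higher and 3.23% lower in arterioles, and 4.3% and 2.91% in peritubular capillaries. Against the other compartments, arterioles had more Cbx6 (887.3 ± 614.1 against 148.1 ± 74.6 CPM, edgeR FDR = 1.74e-05) and less Jarid2 (11.1 ± 13.2 against 156.1 ± 99.3, edgeR FDR = 0.00279). Bmi1, a subunit of Polycomb repressive complex 1, had 0.530 ± 0.348 CPM in arterioles against 27.3 ± 3.43 in whole kidney (edgeR FDR = 0.0199), lower in 4 of 4 libraries. Ezh2, the methyltransferase of complex 2, had 30.4 ± 7.76 CPM in venules against 2.03 ± 4.38 in the other compartments and did not pass (edgeR FDR = 0.153).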

How the data were processed

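The authors deposited raw read counts per gene, made from QuantSeq 3′ reads that, according to the study's methods and processing notes, were trimmed with bbduk, aligned with STAR 2.7 to GRCm38.p6 and counted with HTSeq 0.13; neither a strand setting nor molecular identifiers are stated in the sources at hand. The processing notes also list featureCounts and build GRCm39, with no role. Of 168 columns of per-sample values, 20 were used and 148 were not. The 3 header lines without a gene were dropped. Columns were assigned to groups by the header and the letter of their names. The number in a column name is not the replicate number of the labels.

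The Hox genes and the other gene lists were chosen with earlier results of these data known. Counts were tested in R 4.3.3 with edgeR 4.0.16 (TMM, filterByExpr by group, quasi-likelihood F test as in edgeR version 3), with Benjamini-Hochberg adjustment over all genes tested: 13813 in the fit of 20 libraries and 12179 in that of 16. The standard error is the log2 fold change over the square root of F. CPM are on TMM-scaled totals. Alternatives were DESeq2 1.42.0, other scalings, filters and forms of the test, a replicate block, and leaving out each library. Values per library are given for members called in any of 8 contrasts and the 12 with the highest mean of group means; from each other list, up to 4 genes with the smallest p are named with values. Other members and list genes named were chosen after their values were seen. How often groups do not overlap over all genes is not given, so a statement of no overlap describes only the gene named. Of the gene identifiers, 34185 of 34255 matched GENCODE M21, and promoters are from RefSeq (GRCm38.p6), 23 for 21 of 37 members. Values of some genes are not reported here. The test was checked on simulated counts. Reads without molecular identifiers are not independent molecules, so intervals and limits cover counting error only.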

Additional observations from a re-analysis of the deposited data

Results flagged for a closer look

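In a group of 4 libraries, a library was singled out where its gap to the nearest other library, over the range of the group, exceeded Dixon's critical value. Of 98 groups tested, 6 were singled out, and chance gives about 1 in 20. Hoxb5 was far higher in arteriole 96 (163.1 CPM) than in the other arterioles, and in capillary 96 (45.9 CPM) than in the other capillaries. Hoxc6 was higher in capillary 93 (13.6 CPM) than in the other capillaries, the group in which it was called lower. The Hoxb share of Hox CPM was lower in venule 96 (12.2%) than in the other venules. Whole kidney 93 held 30 members with at least 1 count where the other 3 libraries held 31, and its Hoxd8 level was 126.4 CPM, above the other 3.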

How the results depend on the processing

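Every called member kept its direction under every alternative. Against whole kidney, the version 4 form of the test called 4 members higher and 1 lower in arterioles and 1 higher in glomeruli. The DESeq2 Wald test called 3 higher in arterioles, adding Hoxc6. Over all 13813 genes, the version 4 form called 2051 higher and 654 lower in arterioles and 692 higher in glomeruli. The DESeq2 Wald test called 1827 higher in arterioles, beside 798 in the main test. Fits of only the 8 libraries compared called 3 lower in arterioles, adding Hoxa4, 4 higher in glomeruli, 1 higher and 3 lower in peritubular capillaries, and 1 lower in venules. Against the other compartments, arterioles had 2 members higher with DESeq2 size factors or the version 4 form. They had 3 with the DESeq2 Wald test or all 20 libraries, and 5 with no filter or the independent filter. They had 0 lower with no filter and 1 with the independent filter or the version 4 form. Over all 12179 genes, 988 were called higher in arterioles by the main test and 1412 with DESeq2 size factors. The version 4 form called 1824 and the DESeq2 Wald test 1709. With all 20 libraries it was 1614 of 13813, and with no filter and the independent filter 1860 and 1910 of 21058. Genes called lower numbered 393 in the main test, 395 with no filter, 429 with the independent filter and 426 in the version 4 form. Glomeruli had 1 higher in the version 4 form and 1 lower with DESeq2, beside 501 and 494 of 12179 genes. Peritubular capillaries had 1 higher with no filter, the independent filter or all 20 libraries, and 2 lower with DESeq2. The genes called higher there numbered, in that order, 1189 of 21058, 1247 of 21058 and 1264 of 13813. DESeq2 called 1176 of 12179 genes lower. Fitting 8 libraries moved the counts over all genes as well, for instance from 12 to 314 higher and from 1 to 1066 lower in peritubular capillaries. The move was from 760 to 2424 lower in arterioles, from 219 to 1508 higher in glomeruli and from 3 to 765 lower in venules. The causes were not tested.

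Leaving out 1 library gave 0 to 2 members higher and 1 to 3 lower in arterioles against whole kidney, and, against the other compartments, 0 to 2 higher and 0 to 2 lower in arterioles, 0 to 1 higher in glomeruli and 0 to 1 lower in peritubular capillaries. On plain totals the summed Hox CPM was 1185 in glomeruli, 691.4 in peritubular capillaries and 704.0 in whole kidney. Thinned to the smallest library, whole kidney held 30.25 members with at least 1 count on average, in place of 30.75.

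Over 40 pairs of libraries that share a column number, the correlation of deviations ran from -0.0456 to 0.0626 (median 0.0064). Over 120 pairs with other numbers it ran from -0.0908 to 0.0406 (median -0.002). Of either kind, 0 pairs were over 0.1, so this comparison cannot show whether libraries with the same number came from the same mouse. With the column number as a replicate block, arterioles had 0 members lower against the other compartments, where Hoxd9 (edgeR FDR = 0.0682) and Hoxd10 (edgeR FDR = 0.0664) no longer passed; the block changed no other call of a member. DESeq2 size factors in place of TMM moved the median log2 fold change of all genes in arterioles from 0.22 to 0.39 against whole kidney and from 0.31 to 0.55 against the other compartments.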
